A study of Homo sapiens with 91 samples.

Results

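NEAT1-high and NEAT1-low cells are the 12 single cells with the most and the 12 with the least NEAT1 RNA among 38 single cells of 1 clone of HEK293T, a transformed human embryonic kidney line that carries the simian virus large T antigen. They make up 24 of the 38 cells and 24 of the 91 samples described for the series. The members were chosen by their measured NEAT1 level in CPM, the number of exonic NEAT1 barcodes per 1000000 exonic barcodes of the library, and the 14 cells between the groups were kept in the fits to estimate the spread. The libraries were made by MATQ-seq, which amplifies total RNA from the input of 1 cell and labels cDNA molecules with random barcodes, so that a barcode stands for a molecule and not for an amplified copy. All cells were grown in the same medium with serum and the labels name no treatment, so the groups are set by the measured NEAT1 level and not by a condition of the study. Beside them stand 10 averaged aliquots of the same clone, each at the input of 1 cell but drawn from pooled material. The labels do not say whether the cells came from separate cultures, and p-values speak only of the spread between cells of this 1 clone.

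NEAT1 is a long noncoding RNA that stays in the nucleus and is the scaffold of paraspeckles, bodies that form where it is transcribed. Its long isoform is bound by SFPQ, NONO and related RNA-binding proteins, and paraspeckles retain some RNAs and proteins in the nucleus. The gene next to it, MALAT1, makes another abundant nuclear RNA, which collects in nuclear speckles, the stores of splicing factors. In many cell types NEAT1 rises under stress.

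The 3′ ends of the long NEAT1 isoform and of MALAT1 are shown because the 2 RNAs share an unusual end that holds them apart from polyadenylated mRNAs: both are cut by RNase P and folded into a triple helix of U-rich and A-rich strings. The sequences are from GENCODE release 29 on GRCh38, chromosome 11, plus strand, 5′ to 3′, and capitals mark the U-rich strings TTTTGCTTTT and TTTTTCTTTT and the A-rich string AAAAAGCAAAA.
NEAT1-202, the last 110 bases of the transcript: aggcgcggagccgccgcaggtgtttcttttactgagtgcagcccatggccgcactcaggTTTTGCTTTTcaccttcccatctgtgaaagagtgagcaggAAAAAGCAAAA
MALAT1-202, 110 bases ending with the A-rich string: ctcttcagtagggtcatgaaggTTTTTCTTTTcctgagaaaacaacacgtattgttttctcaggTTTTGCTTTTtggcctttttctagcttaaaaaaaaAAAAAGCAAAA
The A-rich string occurred in 903 of 206694 annotated transcripts (0.437%) on the transcript strand. TTTTTCTTTT was found in the MALAT1 stretch and not in these 110 bases of NEAT1. A shorter U-rich run, tttctttt, stands before TTTTGCTTTT in the NEAT1 stretch and is not marked. The deposited counts are per gene, so the short and the long NEAT1 isoforms cannot be told apart in them.

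NEAT1 was counted with 367 to 1223 exonic barcodes in each NEAT1-high cell and 62 to 253 in each NEAT1-low cell. Its level ran from 2403 to 5165 CPM in the NEAT1-high cells (median 2886, mean 3195 ± 834, SD, n = 12). In the NEAT1-low cells it ran from 346 to 938 CPM (median 569, mean 598 ± 192, SD, n = 12). These values chose the groups and are a description with no test. At the upper edge, cell 20 was inside at 2403 CPM and cell 10 outside at 1988 CPM. At the lower edge, cell 12 was inside at 938 CPM and cell 26 outside at 1037 CPM. The 10 aliquots held 1417 to 1724 CPM (mean 1581 ± 106, SD), between the groups. No library had an intronic NEAT1 barcode.

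**Figure D1:**
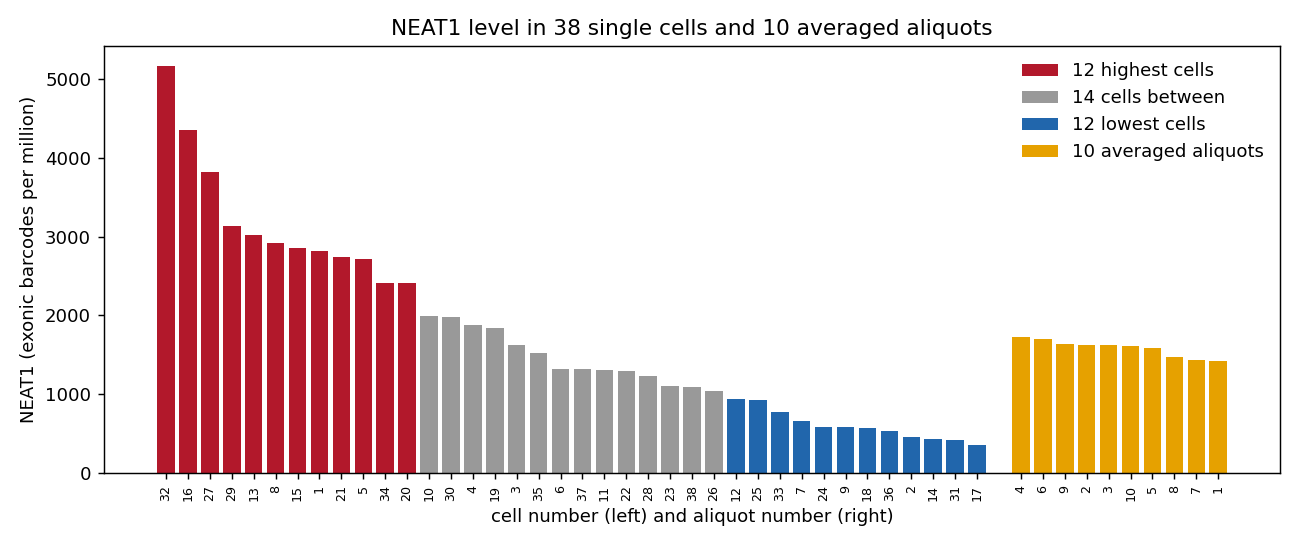
NEAT1 level (vertical axis, CPM of exonic barcodes) in each of 38 single cells, ordered by level and labelled by cell number, and in 10 averaged aliquots. The red bars (12 highest cells) start at 2403 CPM, the blue bars (12 lowest cells) end at 938 CPM, and the aliquots lie between them.

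The depth of the groups overlapped, while their shares of intronic RNA stood further apart and 5 NEAT1-low cells were unusual. A NEAT1-high cell held 128322 to 301026 exonic barcodes and a NEAT1-low cell 178086 to 326476. Intronic barcodes were 58.0 ± 5.83% of exonic and intronic barcodes in NEAT1-high cells and 49.7 ± 9.56% in NEAT1-low cells (SD, n = 12 each; permutation p = 0.0171, two-sided, adjusted p = 0.103 over 6 library measures), against 57.6 ± 1.66% in aliquots. Over the 38 cells, NEAT1 CPM and the intronic share had a Spearman coefficient of 0.40 (Pearson 0.44). The other 5 measures (exonic barcodes, reads per barcode, genes detected, genes detected at equal depth and cell number) gave adjusted p-values of 0.449 to 0.988. Cells 25 and 31, both NEAT1-low, stood apart: after thinning each cell to 128322 barcodes they held 13185 and 13222 detected genes, against 10719 to 12149 in the other 36 cells. Their intronic shares were 58.4% and 59.7%. Cells 9, 18 and 36, also NEAT1-low, stood apart in the other way, with intronic shares of 34.9%, 38.2% and 32.7%, against 47.4 to 59.7% in the other 9 NEAT1-low cells, and with 10719 to 10783 genes detected after thinning, against 11191 or more. Cell 38, of the cells between the groups, was like these, with an intronic share of 36.1% and 10876 genes after thinning, and was kept. Without cells 9, 18 and 36 the intronic share of the groups differed by 3.43 percentage points in place of 8.24 (adjusted p = 0.476, permutation test). These cells were singled out by that share, so a smaller difference followed from the choice. Of 9 HEK293T-associated markers, 7 reached the level for testing and none passed the test, with IRS4 at a mean of 933 CPM over the cells. Of 13 markers of MCF10A, the mammary line of the series, none reached that level. Their summed level was 0 to 46.8 CPM in NEAT1-high and 3.06 to 63.6 CPM in NEAT1-low cells, and the basal keratins KRT17 and KRT6A were at 0 in every cell.

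Genes were tested where the 38 cells averaged 10 CPM or more, with NEAT1 itself left out. Of these 9978 genes 68 were called (0.681%), of which 33 rose in NEAT1-high cells (0.331%) and 35 fell (0.351%), at an adjusted p under 0.05 by edgeR's quasi-likelihood test with Benjamini-Hochberg adjustment. Before adjustment, 1418 genes (14.2%) had p under 0.05, 730 higher (7.32%) and 688 lower (6.9%). The called genes had adjusted p-values from 0.0190 to 0.0496, close to the threshold. The calls rested on particular cells: without cell 31 only 8 genes were called, without cell 21 only 10, and without both cells 25 and 31, a choice made after seeing the data, 13 (0.13%), of which 11 were higher (0.11%) and 2 lower (0.02%). Without cells 9, 18 and 36, also left out after seeing the data, no gene was called by edgeR (0.0%), 1180 had an unadjusted p under 0.05, and the 68 genes kept their direction and an unadjusted p under 0.05, with adjusted p-values of 0.0515 to 0.175. Every call below was therefore lost in that fit. The other cells whose omission moved the count by over 1.5 times were cells 1 (31 genes), 12 (25), 15 (23), 16 (17), 17 (39), 18 (38), 33 (16), 36 (23), 5 (29) and 8 (17), while without cell 27 it was 103. With median-ratio size factors 35 rose and 24 fell, a higher share of rises than with TMM. With the intronic share as a covariate no gene was called by edgeR (0.0%), and 906 (9.08%) had an unadjusted p under 0.05, 515 higher (5.16%) and 391 lower (3.92%). All 68 genes kept their direction and an unadjusted p under 0.05 both in that fit, where the log2 difference was a median of 0.88 (higher genes) and 0.80 (lower genes) times that without the covariate, and without cells 25 and 31. The called genes named by rule kept the call in 11 to 24 of the 24 fits that left out 1 cell, those named after their values were seen in 5 to 15, and for the former the omission that weakened one of them most was that of cell 1, 5, 8, 15, 16, 21, 31 or 33. With the runs of cell numbers as a block (cells 1 to 5, 6 to 14, 15 to 22 and 23 to 38), 34 of the 68 stayed called. Of those named by rule, the block ended the calls of RHPN1 (adjusted p = 0.0630), MAPK8IP3 (0.0542), MCM10 (0.0542), SF3B1 (0.0630), CSTF2 (0.0542), CCT8 (0.0859) and IGSF9B (0.0811).

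MALAT1 rose in NEAT1-high cells. It held 1074 to 3487 CPM (median 1853) there, 441 to 2369 CPM (median 838) in NEAT1-low cells and 1409 to 1814 CPM (median 1621) in aliquots. All 12 NEAT1-high cells lay above the median of the low cells, but only 3 above the highest of them, so the groups overlapped. The means were 2017 ± 618 and 986 ± 519 CPM (SD, n = 12 each), and the log2 difference was 1.03 ± 0.22 (SE; adjusted p = 0.0343, edgeR quasi-likelihood). MALAT1 was called in 20 of 24 fits that left out 1 cell, with the weakest value without cell 31 (adjusted p = 0.0544). Its log2 difference was 0.79 with the intronic share as a covariate (adjusted p = 0.274, edgeR). It was 0.97 without cells 25 and 31 (adjusted p = 0.0714, edgeR) and 1.05 without cells 9, 18 and 36 (adjusted p = 0.0804). With 8 against 8 cells it was 0.89 (adjusted p = 0.244, edgeR), and with 19 against 19 cells 0.88 (adjusted p = 0.00738). The level was higher in NEAT1-high cells within each of 4 runs of cell numbers. It was 2866 against 2369 CPM in cells 1 to 5 (2 NEAT1-high cells and 1 NEAT1-low cell). In cells 15 to 22 it was 1965 against 604 CPM (4 and 2 cells). The runs hold the cells that gave the call, so this is a description. In the aliquots, NEAT1 and MALAT1 had a Spearman coefficient of -0.19 (n = 10).

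The largest log2 difference among the 12 higher genes with the smallest p was that of ENO2, the neuronal form of the glycolytic enzyme enolase, with 12.5 to 242 CPM (median 40.0) in NEAT1-high and 0 to 28.6 CPM (median 11.8) in NEAT1-low cells (log2 difference 2.08 ± 0.46, adjusted p = 0.0328, edgeR). All 12 NEAT1-high cells exceeded the low median and 8 exceeded every low cell. KIF1A, a kinesin that carries synaptic vesicle precursors along axons, held 62.3 to 397 CPM (median 137) and 0 to 99.8 CPM (median 39.0), with a log2 difference of 2.07 ± 0.43 (adjusted p = 0.0328, edgeR). In 9 of 12 NEAT1-high cells it was above every low cell, and the aliquots averaged 126 ± 56.0 CPM. ADGRV1, a very large adhesion receptor, held 46.8 to 237 CPM (median 106) and 21.4 to 70.0 CPM (median 43.7), and 10 NEAT1-high cells lay above every low cell (log2 difference 1.24 ± 0.25, adjusted p = 0.0190, edgeR). AKAP9, a scaffold that binds protein kinase A at the centrosome and Golgi, held 124 to 542 CPM (median 253) and 92.7 to 186 CPM (median 144) (log2 difference 0.84 ± 0.18, adjusted p = 0.0201, edgeR). ADGRV1 and AKAP9 were called whichever of the 24 cells was left out, while KIF1A lost its call without cell 31 and ENO2 without cell 15. KIF1A and ENO2 also lost it with 19 against 19 cells (adjusted p = 0.0554 and 0.0713, edgeR).

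**Figure D2:**
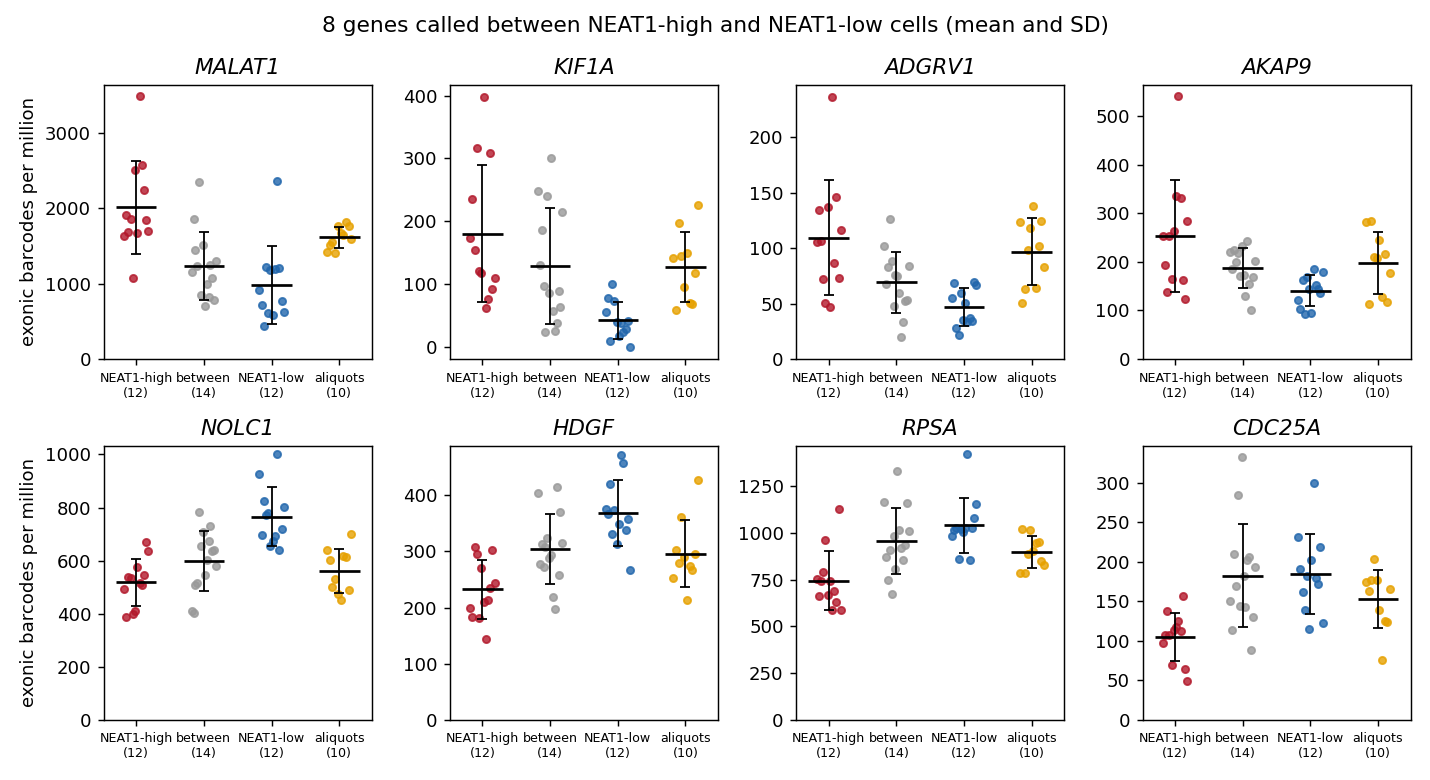
Levels (vertical axes, CPM of exonic barcodes) of 8 genes called between the groups, with each point a library, horizontal lines the group mean and bars the SD. MALAT1, KIF1A, ADGRV1 and AKAP9 were higher in NEAT1-high cells, NOLC1, HDGF, RPSA and CDC25A were lower, and the groups overlap in every panel.

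The remaining higher genes of the 12 with the smallest p spanned log2 differences of 0.75 to 1.87, each at an adjusted p of 0.0215 to 0.0371 by edgeR. SREK1, a splicing regulator of the serine-arginine family, averaged 324 ± 94.9 CPM in NEAT1-high and 193 ± 51.5 CPM in NEAT1-low cells (SD). SYVN1, a ubiquitin ligase of protein quality control in the endoplasmic reticulum, held 88.9 to 266 CPM (median 162) and 50.5 to 161 CPM (median 91.9). It lies within 1 Mb of NEAT1 and overlaps FAU and MRPL49 in the annotation, whose reads could be counted for it. MAPK8IP3, an adaptor that links JNK signalling to kinesin transport, averaged 154 ± 46.2 and 81.2 ± 30.7 CPM, with 10 NEAT1-high cells above every low cell. In the 14 cells between it averaged 76.2 CPM, below the NEAT1-low mean, so it did not follow the order of NEAT1. PATJ, a scaffold of the Crumbs polarity complex, averaged 109 ± 31.9 and 51.2 ± 27.2 CPM. SH3GLB2 (endophilin B2), NPDC1 and RHPN1 (rhophilin 1) had log2 differences of 1.22, 1.52 and 1.87. Among the called genes with a larger p, picked here after their values were seen, were FAT3, a giant cadherin (2.60 ± 0.63), KCNC1, a voltage-gated potassium channel (2.01 ± 0.50), PCLO, a presynaptic scaffold (0.95 ± 0.24), SYNE2, a nuclear envelope spectrin-repeat protein (0.93 ± 0.23), and UTRN, the dystrophin relative utrophin (0.74 ± 0.19), each a log2 difference with its SE. In the annotation ADGRV1, ENO2, SH3GLB2 and MAPK8IP3 overlap LYSMD3, LRRC23, NUP188 and NME3, whose reads their counts could include. Of the 33 higher genes 30 were protein-coding, and 31 had the same direction in all 4 runs of cell numbers, the first of which holds 1 NEAT1-low cell. The runs are made of the cells that gave the calls, so this count is a description.

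NOLC1, a nucleolar phosphoprotein that chaperones small nucleolar ribonucleoproteins, fell in NEAT1-high cells. It held 386 to 671 CPM (median 526) there and 639 to 1002 CPM (median 745) in NEAT1-low cells, and 11 of 12 NEAT1-high cells lay below every low cell. The means were 518 ± 88.6 and 765 ± 111 CPM (SD, n = 12 each; log2 difference -0.56 ± 0.12, adjusted p = 0.0195, edgeR), with aliquots at 562 ± 83.2 CPM. HDGF, a chromatin-binding growth factor, held 143 to 308 CPM (median 224) and 268 to 472 CPM (median 363), and 8 NEAT1-high cells lay below every low cell (log2 difference -0.66 ± 0.14, adjusted p = 0.0190, edgeR). NOLC1 and HDGF were the 2 lower genes called whichever cell was left out, and also the 2 called without both cells 25 and 31. HDGF was not called with 19 against 19 cells (adjusted p = 0.0511, edgeR).

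NUDT5, which hydrolyses ADP-ribose, fell. It averaged 91.5 ± 29.9 CPM in NEAT1-high and 171 ± 47.0 CPM in NEAT1-low cells (log2 difference -0.88 ± 0.19, adjusted p = 0.0215, edgeR). DCTPP1, which removes dCTP and modified relatives from the nucleotide pool, averaged 116 ± 32.6 and 193 ± 51.0 CPM (log2 difference -0.74 ± 0.17, adjusted p = 0.0328, edgeR). PAICS, an enzyme of purine synthesis picked after its value was seen, had a log2 difference of -0.53 ± 0.14. CDC25A, a phosphatase that activates cyclin-dependent kinases, held 49.6 to 157 CPM (median 110.1) and 114 to 300.3 CPM (median 181) (log2 difference -0.83 ± 0.19, adjusted p = 0.0343, edgeR). MCM10, a replication initiation factor, averaged 145 ± 47.6 and 242 ± 84.7 CPM (log2 difference -0.73 ± 0.18, adjusted p = 0.0378, edgeR). MCM10 was not lower in NEAT1-high cells in runs 1 and 2 of the cell numbers (134.1 against 133.9 and 197.4 against 179.5 CPM). It was lower in runs 3 and 4 (141 against 271 and 127 against 301 CPM). In the cells between the groups MCM10 averaged 256 CPM, above the NEAT1-low mean, so it did not follow the order of NEAT1. ORC1, a subunit of the origin recognition complex picked in the same way as PAICS, had a log2 difference of -0.99 ± 0.25. CDC25A lost its call with 19 against 19 cells (adjusted p = 0.255, edgeR), and so did MCM10 (adjusted p = 0.172). PATJ (adjusted p = 0.138), NPDC1 (0.0811) and PGD (0.0717) lost theirs there too, as did HDGF, KIF1A and ENO2.

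The other lower genes of the 12 with the smallest p had log2 differences of -0.76 to -0.48 and adjusted p-values of 0.0343 to 0.0378 by edgeR. PGD, an enzyme of the pentose phosphate pathway, averaged 131 ± 49.2 and 218 ± 47.4 CPM. LDHB, a subunit of lactate dehydrogenase, averaged 621 ± 149 and 907 ± 211 CPM. GTF3C6, a subunit of the RNA polymerase III factor TFIIIC, averaged 125 ± 44.0 and 214 ± 61.4 CPM, with 9 NEAT1-high cells below every low cell. ABCF2, an ATP-binding cassette protein, and MLF2 had log2 differences of -0.65 ± 0.15 and -0.64 ± 0.16. CCT8, a subunit of the chaperonin that folds actin and tubulin, fell with 132 to 328 CPM (median 191) against 225 to 419.9 CPM (median 291) (log2 difference -0.63 ± 0.16, adjusted p = 0.0378, edgeR). Another chaperonin subunit, CCT3 (-0.56 ± 0.14), and the folded proteins' genes ACTG1 (-0.51 ± 0.13) and TUBB2B (-1.26 ± 0.32), all picked after their values were seen, were called lower as well. ACTG1 and TUBB2B have near-identical paralogs or pseudogenes that can share their reads, so their values are uncertain. HDGF, NUDT5, DCTPP1 and MLF2 overlap PRCC, CDC123, ZNF771 and PTMS in the annotation, whose reads their counts could include. Of the 35 lower genes 34 were protein-coding, and 32 had the same direction in all 4 runs. This count too is a description, since the runs hold the cells that gave the calls and the first holds 1 NEAT1-low cell.

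No tested gene for a paraspeckle protein passed the test. Of 36 listed genes 33 were tested, 0 were called in either direction by edgeR, 5 had an unadjusted p under 0.05 (all lower; 15.2% of the list, against 14.2% of all genes), and the median log2 difference was -0.03, against 0.02 over all genes tested. Without cells 9, 18 and 36 no member was lower and 1 higher at that level. SFPQ, which binds and stabilises the long isoform, held 458 to 1089.7 CPM (median 666) in NEAT1-high and 419 to 873 CPM (median 709) in NEAT1-low cells (log2 difference 0.04 ± 0.12, adjusted p = 0.929, edgeR). NONO, its partner, held 662 to 1369 CPM (median 916) and 691 to 1203 CPM (median 1014) (-0.09 ± 0.10, adjusted p = 0.767). PSPC1, the third protein of the SFPQ family, had a log2 difference of 0.11 ± 0.28 (adjusted p = 0.897, edgeR). The smallest p-values of the list were those of HNRNPF (-0.41, adjusted p = 0.228) and HNRNPM (-0.29, adjusted p = 0.238), RNA-binding proteins of the hnRNP class. RBM14 was under the level for testing. The list median was above 0 with median-ratio factors (0.00271), by DESeq2 (0.00456) and with 8 against 8 cells (0.00300), and the differences of SFPQ and PSPC1 changed sign under some settings (to -0.00985 and -0.0331 with the intronic share as a covariate). The summed level of the list ran from 8557 to 10704 CPM (median 9530) in NEAT1-high and 9279.9 to 11203 CPM (median 9985) in NEAT1-low cells.

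**Figure D3:**
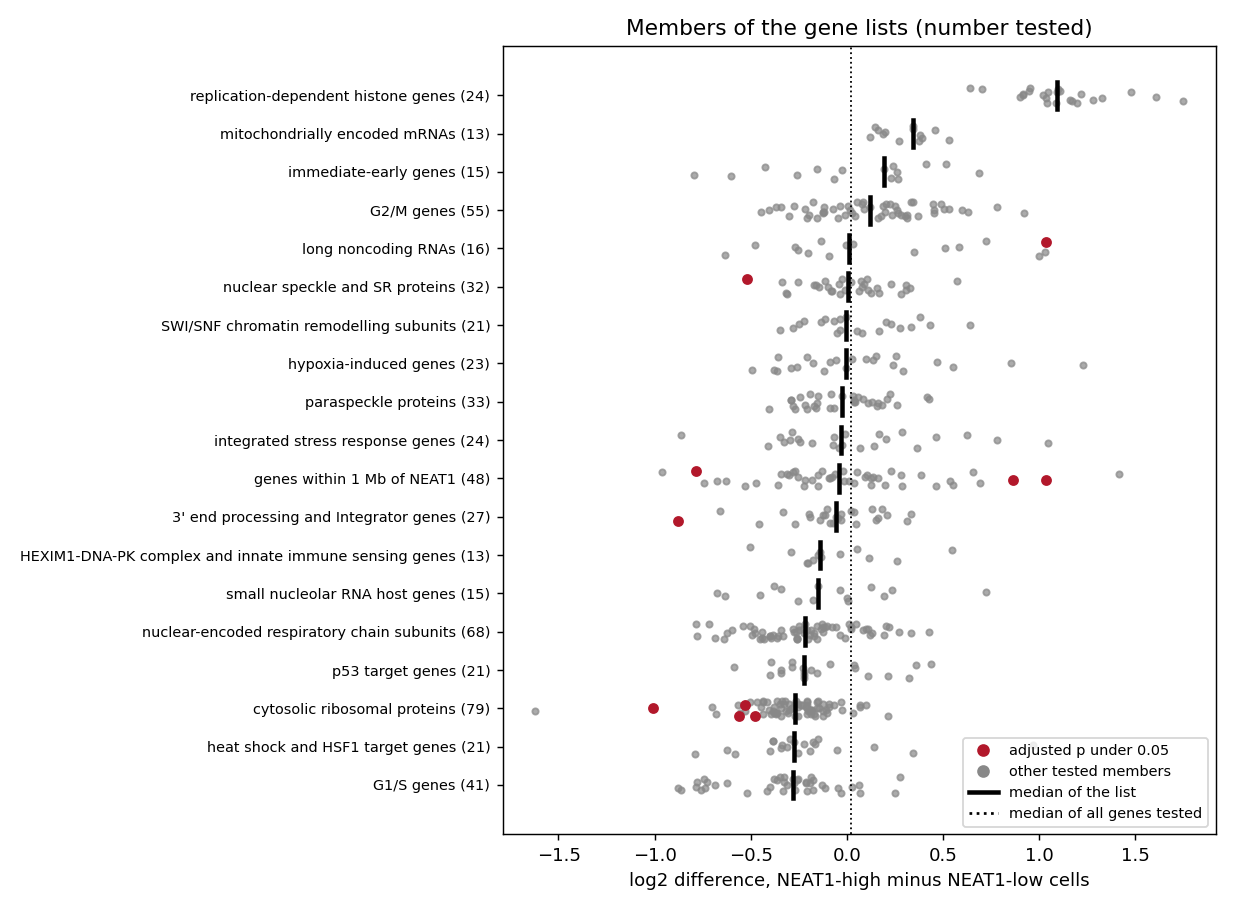
Log2 difference (horizontal axis, NEAT1-high minus NEAT1-low cells) of each tested member of 19 gene lists with at least 10 tested members, red where the adjusted p was under 0.05, with black lines at the list medians and a dotted line at the median of all genes. Paraspeckle proteins centre on -0.03, histone genes on 1.09 and cytosolic ribosomal proteins on -0.27.

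Of 32 tested nuclear speckle and SR protein genes, 15.6% had an unadjusted p under 0.05, against 14.2% of all genes. By edgeR 1 was called lower and 0 higher, and the median was 0.00391. The gene that fell was SF3B1, the branch-site binding subunit of the spliceosome, with 148 to 395 CPM (median 299) in NEAT1-high and 333 to 564 CPM (median 396) in NEAT1-low cells (log2 difference -0.52 ± 0.13, adjusted p = 0.0378, edgeR). RBM25, an SR-like splicing factor, had 0.28 ± 0.12 (adjusted p = 0.257, edgeR). A list of long noncoding RNAs, which does not hold every noncoding gene called, had 16 tested members. MALAT1 was the 1 called, and the median was 0.01. In this list 31.25% had an unadjusted p under 0.05, against 14.2% of all genes. NORAD, a cytoplasmic RNA that sequesters Pumilio proteins, averaged 152 ± 45.8 and 236 ± 84.3 CPM (log2 difference -0.64 ± 0.18, adjusted p = 0.0676, edgeR) and was not called. Of 15 small nucleolar RNA host genes none was called (median -0.15; SNHG5 -0.45 ± 0.15 and SNHG8 -0.63 ± 0.25 had the smallest p-values). RMRP, the RNA of RNase MRP, had 0.57 ± 0.31 (adjusted p = 0.408, edgeR), and TERC, the telomerase RNA, 0.52 ± 0.28 (adjusted p = 0.409). With the intronic share as a covariate these were 0.01 and 0.09.

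Of 127 annotated genes within 1 Mb of NEAT1, 48 were tested, with a median of -0.04. Of the tested genes 18.75% had an unadjusted p under 0.05, against 14.2% of all genes. The test called 2 higher (MALAT1 and SYVN1) and 1 lower, against 0.331% and 0.351% of all genes. The gene that fell was EIF1AD (-0.79 ± 0.21, adjusted p = 0.0448, edgeR), which was called in 5 of 24 fits that left out 1 cell and not with median-ratio factors (adjusted p = 0.0546), by limma (0.0619) or with the runs as a block (0.0782). It overlaps BANF1 in the annotation. FRMD8, the neighbour on the other side of NEAT1 from MALAT1, had 0.66 ± 0.39 (adjusted p = 0.460, edgeR). Which genes lie there was read from GENCODE on GRCh38, and no coordinates of the deposited build are given.

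Genes of cytosolic ribosomal proteins, the protein part of the ribosome, leaned lower in NEAT1-high cells. Of 79 tested genes 4 fell (RPSA, RPL19, RPLP0 and RPL26), 0 rose, 41 had an unadjusted p under 0.05, all lower (51.9% of the list, against 14.2% of all genes in either direction), and 74 had a negative log2 difference, with a median of -0.27. Their summed level was 25325 to 41316 CPM (median 36824) in NEAT1-high and 36059.7 to 57357 CPM (median 42570) in NEAT1-low cells. All 12 NEAT1-high cells lay below the low median, and the aliquots, at 31971 to 36836 CPM (median 35006), overlapped the NEAT1-high cells. RPSA, a protein of the small subunit, held 585 to 1130.3 CPM (median 716) and 854 to 1425 CPM (median 1025), with 10 NEAT1-high cells below every low cell (log2 difference -0.48 ± 0.11, adjusted p = 0.0343, edgeR). RPL19 held 279 to 699 CPM (median 445) and 478 to 845 CPM (median 720.5) (log2 difference -0.56 ± 0.14, adjusted p = 0.0378). RPLP0 and RPL26 had log2 differences of -0.53 ± 0.13 and -1.01 ± 0.26. Ribosomal protein genes have many processed pseudogenes that can share reads, so values of single genes are uncertain. The intronic share of the libraries moved with this list: the summed level had a Spearman coefficient of -0.53 with the intronic share and -0.54 with NEAT1 over 38 cells. With the intronic share as a covariate the list's median was -0.16, 18 genes had an unadjusted p under 0.05 and none was called. Without cells 9, 18 and 36 the median was -0.19, with 23 genes at an unadjusted p under 0.05.

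The start sites of the 4 called ribosomal protein genes are shown because mRNAs of this class begin with a run of pyrimidines, the mark through which growth signals set their translation. The windows hold 10 bases before and 20 from the start of the RefSeq gene on GRCh38.p14, 5′ to 3′ on the gene's strand, with capitals marking a run of at least 5 C or T across the start, and 2 annotated starts of RPL19.
RPSA at chr3:39406710-39406739 (+ strand): tgccgcctgTCTTTTCCgtgctacctgcag
RPL26 at chr17:8383174-8383203 (- strand): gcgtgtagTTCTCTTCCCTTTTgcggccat
RPL19 at chr17:39200273-39200302 (+ strand): tctccccttcgcagataatgggaggagccg
RPL19 at chr17:39200313-39200342 (+ strand): agCTCTTTCCTTTCgctgctgcggccgcag
RPLP0 at chr12:120201092-120201121 (- strand): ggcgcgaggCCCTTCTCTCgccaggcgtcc
A run of this kind was found in 53 of 85 start windows of cytosolic ribosomal protein genes (62.4%) and in 3372 of 35116 of all windows (9.60%). In the first RPL19 window no run crosses the start, since its pyrimidines end at the base before it.

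Nuclear-encoded subunits of the respiratory chain had a negative median and mitochondrially encoded mRNAs a positive one, without calls. Of 68 nuclear-encoded subunits 0 were called by edgeR, 16 were lower and 1 higher at an unadjusted p under 0.05 (25%, against 14.2% of all genes), and the median was -0.22. With the intronic share as a covariate 5 were lower and 2 higher (median -0.10), and without cells 9, 18 and 36, 10 were lower and 1 higher. SDHB, the iron-sulfur subunit of complex II, averaged 65.4 ± 15.7 CPM in NEAT1-high and 109 ± 17.6 CPM in NEAT1-low cells (log2 difference -0.71 ± 0.19, adjusted p = 0.0562, edgeR), and UQCRC1, a core subunit of complex III, 134 ± 71.9 and 219 ± 62.3 CPM (adjusted p = 0.0858, edgeR). All 13 mitochondrial mRNAs had a positive log2 difference with a median of 0.34. Of the 13, 6 had an unadjusted p under 0.05 (46.2%, against 14.2% of all genes) and 0 were called by edgeR. Their summed level was 13003 to 25379.5 CPM (median 19330) in NEAT1-high and 10704 to 24318 CPM (median 15317) in NEAT1-low cells. MT-ND6, the 1 mRNA encoded on the light strand, held 969.5 to 2039.6 CPM (median 1533) and 712 to 1663 CPM (median 1071) (log2 difference 0.46 ± 0.14, adjusted p = 0.106, edgeR), and MT-ND4L, which overlaps MT-ND4, had 0.38 ± 0.14 (adjusted p = 0.158). Without cells 25 and 31 the median of the list was 0.24.

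Replication-dependent histone genes, which are transcribed in S phase and end in a stem-loop in place of a poly(A) tail, had the largest median of the lists with at least 10 tested members. All 24 tested genes were higher in NEAT1-high cells, 22 at an unadjusted p under 0.05 (91.7%, against 14.2% of all genes). The median log2 difference of the list was 1.09 (1.05 with the intronic share as a covariate), but 0 were called by edgeR. HIST1H2BJ averaged 70.0 ± 63.6 CPM in NEAT1-high and 21.3 ± 15.6 CPM in NEAT1-low cells (log2 difference 1.75 ± 0.48, adjusted p = 0.0633, edgeR), and HIST3H2BB 141 ± 79.6 and 68.2 ± 50.5 CPM (1.09 ± 0.34, adjusted p = 0.118). The summed level was 2120.2 to 15438 CPM (median 6385) in NEAT1-high and 1944 to 9271 CPM (median 3650.3) in NEAT1-low cells, so the groups overlapped widely and 5 of 12 NEAT1-high cells lay above every low cell. In the 14 cells between it was 1785 to 13327 CPM (median 8348), and in aliquots 7703 to 11879 CPM (median 10375). Histone genes are near-identical copies, so their reads may be split between them, and they rise and fall together in a cell, so the 24 genes are not 24 independent observations.

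Genes of the G1/S transition, which prepare DNA replication, had a negative median where the histone genes had a positive one. Of 41 tested genes 0 were called by edgeR, 13 were lower and 0 higher at an unadjusted p under 0.05 (31.7%, against 14.2% of all genes; 8 lower without cells 9, 18 and 36), and the median was -0.28. The list does not hold CDC25A and MCM10, which were called lower. CDC6, which loads the replicative helicase, averaged 124 ± 41.8 CPM in NEAT1-high and 211 ± 85.6 CPM in NEAT1-low cells (log2 difference -0.74 ± 0.21, adjusted p = 0.0618, edgeR), and MCM6, a subunit of that helicase, 138 ± 45.1 and 241 ± 123 CPM (-0.79 ± 0.23, adjusted p = 0.0858). The summed level was 3501 to 6518 CPM (median 4488) in NEAT1-high, 4161 to 8651 CPM (median 5604) in NEAT1-low and 4375 to 9675 CPM (median 7023) in the cells between, so it did not follow the order of NEAT1. Of 55 G2/M genes 0 were called by edgeR, 5 were higher and 1 lower at an unadjusted p under 0.05 (10.9%, against 14.2% of all genes), and the median was 0.12. Without cells 25 and 31, 1 was higher (median 0.0737), and without cells 9, 18 and 36, 2. CKAP2, a spindle protein, had 0.45 ± 0.17 (adjusted p = 0.181, edgeR), and PSRC1, another, 0.92 ± 0.43 (adjusted p = 0.314).

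**Figure D4:**
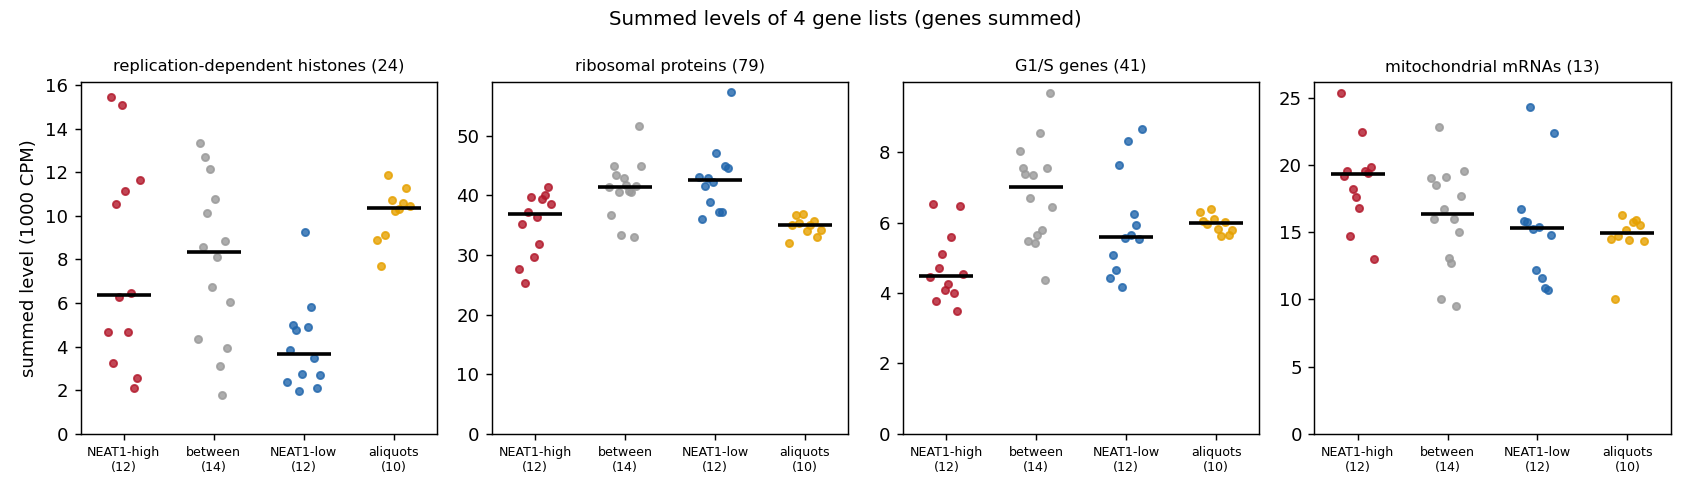
Summed level (vertical axes, units of 1000 CPM, each starting at 0) of 4 gene lists in each library, by group, with lines at the medians. NEAT1-high cells lie low in ribosomal proteins and G1/S genes, the NEAT1-low cells lie low in histone genes, and the mitochondrial mRNAs overlap widely.

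The lists of stress pathways, of which p53, hypoxia and heat shock are known to induce NEAT1 in other cells, held no call. Of 21 tested p53 targets 0 were called by edgeR and 0 had an unadjusted p under 0.05, against 14.2% of all genes. The median of the list was -0.22, but -0.0519 without cells 25 and 31 and 0.0319 with 8 against 8 cells. RRM2B, a p53-induced ribonucleotide reductase subunit, had -0.59 ± 0.40, and BAX, an apoptosis effector, -0.29 ± 0.21. Of 23 hypoxia-induced genes 17.4% had an unadjusted p under 0.05, 1 higher and 3 lower, against 14.2% of all genes. By edgeR 0 of the 23 were called, and the median was -0.01. Their summed level was 2496 to 3859.7 CPM (median 3001) in NEAT1-high and 3119 to 4082 CPM (median 3454) in NEAT1-low cells, and 11 of 12 NEAT1-high cells lay below the low median. VEGFA, the angiogenic growth factor, held 31.3 to 268 CPM (median 74.4) in NEAT1-high and 14.3 to 88.3 CPM (median 45.3) in NEAT1-low cells (log2 difference 1.23 ± 0.35, adjusted p = 0.0732, edgeR), and ENO1, the ubiquitous enolase, -0.36 ± 0.11 (adjusted p = 0.100). VEGFA was called with 19 against 19 cells (adjusted p = 0.00252). Of 21 heat shock and HSF1 target genes 8 were lower and 1 higher at an unadjusted p under 0.05. This was 42.9%, against 14.2% of all genes. By edgeR 0 of the 21 were called, and the median was -0.28. Their summed level was 5920.5 to 8275 CPM (median 6743) in NEAT1-high and 6453 to 9771 CPM (median 8588) in NEAT1-low cells, and all 12 NEAT1-high cells lay below the low median. HSP90AB1, the constitutive cytosolic HSP90, held 1234 to 2205 CPM (median 1519.7) and 1497 to 2571 CPM (median 2040.5) (log2 difference -0.34 ± 0.10, adjusted p = 0.0850, edgeR), and CACYBP had -0.62 ± 0.17 (adjusted p = 0.0586). Of 24 genes of the integrated stress response, 15 immediate-early genes and 13 genes of the HEXIM1-DNA-PK complex and innate sensing, none was called, with medians of -0.03, 0.19 and -0.14. The first was 0.0197 without cells 25 and 31, and the second -0.0762, -0.0579 and -0.0982 with 8, 16 and 19 cells a group.

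In the integrated stress response list MTHFD2, a mitochondrial folate enzyme, had a log2 difference of -0.86 ± 0.30 (adjusted p = 0.142, edgeR) and STC2, a secreted glycoprotein, 0.62 ± 0.27 (adjusted p = 0.274). Among immediate-early genes KLF6 and ZFP36L1 had 0.69 ± 0.33 and 0.51 ± 0.26, and in the innate list STAT2 and XRCC6 had 0.54 ± 0.25 and -0.29 ± 0.14. The 27 tested genes of 3′ end processing and the Integrator complex belong to the machinery that sets the choice between NEAT1 isoforms among its tasks. Of them 14.8% had an unadjusted p under 0.05, against 14.2% of all genes. By edgeR 1 fell and 0 rose (median -0.06). It was CSTF2, the cleavage stimulation factor subunit that binds the site downstream of a poly(A) signal, with 26.6 to 113 CPM (median 56.1) in NEAT1-high and 64.6 to 144 CPM (median 110.4) in NEAT1-low cells (log2 difference -0.88 ± 0.22, adjusted p = 0.0378, edgeR). CSTF3, its partner, had -0.66 ± 0.25 (adjusted p = 0.194). Of 21 SWI/SNF subunits, some of which are known to be needed for paraspeckles, none was called (median -0.00478; SMARCA4 -0.28 ± 0.12 and SMARCC1 -0.25 ± 0.11). Of the HEK293T-associated markers KRT18 had -0.89 ± 0.40 and NEFM -0.94 ± 0.51, with adjusted p-values of 0.275 and 0.402 by edgeR.

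The direction of the differences leaned with the length of the genes. In the shortest of 5 equal bins of exonic length (59 to 3140 bases) the median log2 difference was -0.13, and 100 genes were higher and 254 lower at an unadjusted p under 0.05. In the longest bin (8799 to 46064 bases) it was 0.14, with 250 higher and 56 lower. The medians of the bins between were -0.03, 0.01 and 0.06. Of the 33 called higher genes 17 were in the longest bin and 1 in the shortest, and of the 35 called lower genes 4 and 13. The median exonic length was 8829 bases for the higher, 3745 bases for the lower and 5452 bases for all tested genes. The order of the 5 medians was kept with the intronic share as a covariate (-0.07 to 0.10) and without cells 25 and 31 (-0.12 to 0.14). Genes that carry more intronic barcodes in the aliquots leaned the same way: in 5 bins of that share the medians ran from -0.08 to 0.17. NEAT1 and MALAT1 are themselves long RNAs, and the part that length, intronic share or RNA quality plays in the differences of single genes was not tested.

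**Figure D5:**
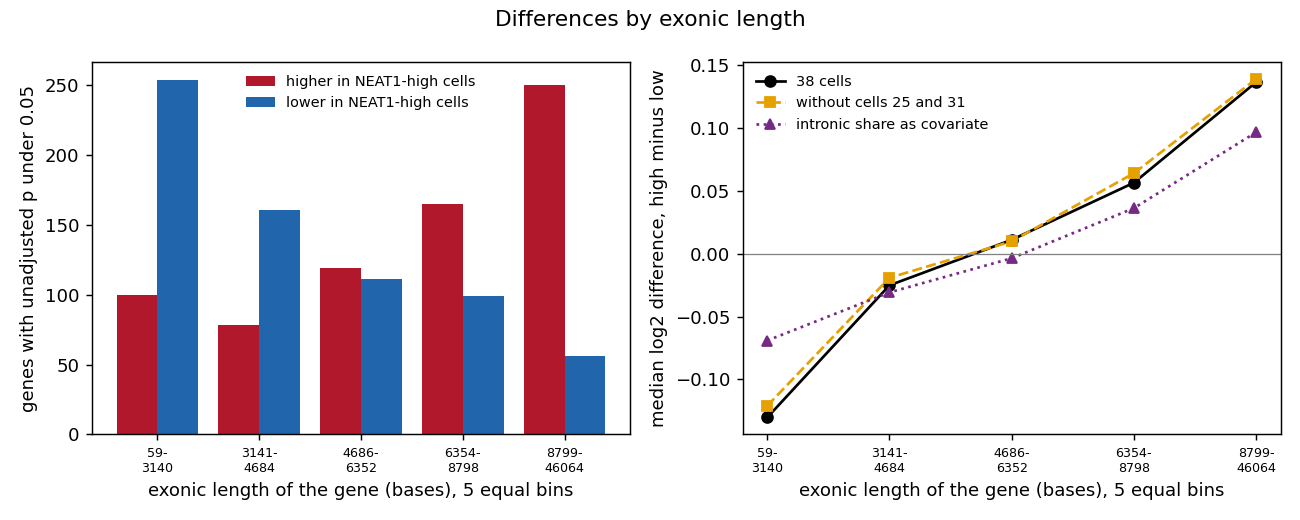
Left, number of genes with an unadjusted p under 0.05 (bars, higher and lower in NEAT1-high cells) by 5 equal bins of exonic length in bases; right, median log2 difference (NEAT1-high minus NEAT1-low cells) of all tested genes in each bin, in the fit of 38 cells, without cells 25 and 31, and with the intronic share as a covariate. Lower genes prevail among short genes and higher genes among long genes, and the medians run from -0.13 to 0.14.

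Intronic barcodes, which come mostly from unspliced RNA and did not enter the ranking, gave no call. Of 12516 genes that averaged 10 intronic CPM or more, 0 were called by edgeR (0.0%) and 1072 (8.57%) had an unadjusted p under 0.05, 473 higher (3.78%) and 599 lower (4.79%). DESeq2 called 39 (0.312%), of which 5 were higher (0.0399%) and 34 lower (0.272%). Of the called exonic genes, 29 of the higher were tested in introns and 23 had the same direction there, 8 of them at an unadjusted p under 0.05. Of the lower, 27 were tested and 19 had the same direction, 2 of them at an unadjusted p under 0.05. The median intronic log2 difference was 0.37 for the higher and -0.12 for the lower genes. It was 0.07 for all 7850 genes tested in both exons and introns. The share of all genes with the same direction in both is not given here. Exonic and intronic barcodes come from the same cells, so these counts are a description. ADGRV1 had an intronic log2 difference of 0.52 ± 0.22, KIF1A 1.15 ± 0.46, MCM10 -1.06 ± 0.33 and NOLC1 -0.01 ± 0.32. The introns with the smallest p were those of CA8, a carbonic anhydrase relative (2.81 ± 0.63), ABCA3, a lipid transporter (2.03 ± 0.48), ZC3H7B (1.09 ± 0.27), WDR35 (1.21 ± 0.32) and AURKA, a mitotic kinase (1.84 ± 0.48), which were higher. Those lower were ABHD3 (-1.12 ± 0.27), the noncoding LINC00529 (-1.44 ± 0.34) and 3 unnamed loci. All 10 had adjusted p-values of 0.140 to 0.206 by edgeR.

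Over all 38 cells the genes whose levels ran most like that of NEAT1, by Spearman coefficient of CPM and among those the naming rule admits and that are reported here, were KIF1A (0.70), ENO2 (0.64), ADGRV1 (0.63), IGSF9B (0.62) and MALAT1 (0.62). IGSF9B, an adhesion molecule of inhibitory synapses, was called too (log2 difference 1.44 ± 0.36, adjusted p = 0.0378, edgeR). The genes that ran most against it were NOLC1 (-0.77), DCTPP1 (-0.69), SF3B1 (-0.66), CCT8 (-0.65) and HDGF (-0.65). In the 10 aliquots, which were drawn from pooled material, the coefficients of the first 5 ran from -0.19 (MALAT1) to 0.30 (KIF1A) and those of the last 5 from -0.60 (NOLC1) to 0.38 (HDGF). The points share library totals and the amplification of each cell, and the coefficients are a description. The level of the called genes in the 14 cells between the groups lay between those of the groups for 31 of the 33 higher and 33 of the 35 lower genes. These genes were chosen for a difference between the groups, which by itself favours a level between them. The counts are a description.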

How the data were processed

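The 38 single cells and 10 averaged aliquots of the clone entered the analysis, and 43 of 91 samples were not analysed here. The deposited files give, for 57820 gene identifiers, whole-number counts of exonic reads, exonic barcodes, intronic reads and intronic barcodes. TopHat and HTSeq on build hg19 made them, per the submitters' processing notes. The sources used here do not give versions, strand setting or barcode length, and overlapping or antisense genes cannot be told apart. Symbols, lengths and neighbours came from GENCODE release 29 (52338 identifiers matched).

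Exonic barcodes were the main measure. Cells held 128322 to 326476 exonic barcodes and aliquots 152542 to 275215. Pairs of cells differed by a chi-square of at least 2.16 per degree of freedom and pairs of aliquots by 2.09, more than resampling of 1 library would give, and none was treated as a duplicate. Genes averaging 10 CPM or more in the 38 cells were fitted in 3 groups with TMM factors and edgeR 4.0.16 (R 4.3.3), two-sided, Benjamini-Hochberg adjusted, called under 0.05. A log2 difference is that of the fit, with its SE from the model, and group means are of CPM. Library measures were compared by permutation (100000 resamples) in Python 3.11.15 with scipy 1.17.1. DESeq2 1.42.0, limma 3.58.1 (prior count 1), other filters, group sizes of 8, 16 and 19, ranking by reads, covariates, thinning, omission of each cell and, chosen after seeing the data, of cells 25 and 31 or of cells 9, 18 and 36 were alternatives. Runs of cell numbers (1 to 5, 6 to 14, 15 to 22, 23 to 38) were taken from steps seen in an earlier look at these data, and no label calls them a batch.

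The groups, lists and tests were chosen with earlier results of these data known, among them the relation of NEAT1 to MALAT1. Named genes, averaging 20 CPM or more and without pseudogenes, unnamed genes and multi-copy small RNAs, were the 12 with the smallest p each way, the 2 of each list with the smallest p, MALAT1, SFPQ, NONO, PSPC1, RBM14, FRMD8, the 5 highest and 5 lowest by Spearman coefficient and 5 introns each way. Some genes, 1 of them called, are not reported here. The fits were tested on simulated counts with 50 changed genes for each size of change. At 1.5 times the exonic fit recovered 4 of 50 and the intronic fit 1 of 50. The counts were 21 and 15 at 2 times, and 43 and 31 at 4 times. Among unchanged genes 2 of 9778 exonic and 1 of 12316 intronic were called. A gene not called may therefore still differ by such amounts.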

Additional observations from a re-analysis of the deposited data

Results flagged for a closer look

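Over the 10 averaged aliquots, 76 values (named genes and library measures) were checked for a library far from the others, and 3 stood apart, where chance alone would set apart about 1 in 20. MT-ND6 was 719 CPM in aliquot 2, with the nearest aliquot at 1032 CPM. MT-ND4L was 411 CPM in the same aliquot, with the nearest at 642 CPM. CCT8 was 353 CPM in aliquot 9, with the nearest at 253 CPM. The aliquots entered no test between NEAT1-high and NEAT1-low cells, and the cause was not tested.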

How the results depend on the processing

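No paired analysis was possible because the groups compared are different cells of 1 set and share no replicate numbers. Beside 68 exonic genes, DESeq2 called 127 (82 higher, 45 lower), all genes without a filter gave 140, 8 against 8 cells 3, 16 against 16 cells 176, 19 against 19 cells 195, cells ranked by reads 13, the intronic share as a covariate 0, runs of cell numbers as a block 43 (34 of the 68), thinning 28, omission of cells 25 and 31 13, and omission of cells 9, 18 and 36 0. Leaving out 1 cell gave 8 (cell 31) to 103 (cell 27). The cause was not tested, apart from the fewer or more cells in some fits. The remaining settings stayed within 1.5 times, among them limma (83), the slope on NEAT1 (86), exonic reads (46) and median-ratio factors (59). For introns DESeq2 called 39 and the cell number as a covariate 4 in place of 0.

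The intronic share differed by 7.86 percentage points with 19 against 19 cells (adjusted p = 0.0122, permutation test) and by 10.1 without cells 25 and 31 (adjusted p = 0.0201, permutation test), and passed in both. Genes at equal depth differed by 485 without those cells (adjusted p = 0.0201, permutation test). Cells 25 and 31 are NEAT1-low and were singled out by this measure. A larger difference therefore followed from the choice, and the p-value is no test of it. Differences that changed sign were genes detected (-40.9 with 19 against 19 cells), exonic depth (46785 with reads) and cell number (1.22 without cells 25 and 31), and, without cells 9, 18 and 36, genes detected (-448), genes at equal depth (-112) and cell number (0.0833), none past the threshold. PSPC1 turned to -0.18 with 8 against 8 cells, -0.0331 with the intronic share, -0.0877 thinned and, leaving out 1 cell, ran from -0.0460 (without cell 5) to 0.197. SFPQ turned to -0.00398 with 16 against 16 cells and -0.00985 with the intronic share, and leaving out 1 cell gave -0.0372 (cell 1) to 0.0847 (cell 21), below 0 also without cells 29 and 36. Over named genes and settings, 2728 values kept direction and side of the threshold, 335 no longer passed, 66 newly passed and 9 changed sign. Depth limits genes near 10 CPM, which hold few barcodes in a cell.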
